A study of Rattus norvegicus with 16 samples.

Results

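Coronary ligation was compared with sham surgery in bulk RNA sequencing of rat hearts, with 4 libraries of ligated hearts (MI) against 4 of sham-operated hearts (Sham), out of 16 libraries in the series. The 8 libraries were taken by their group labels. In MI the left anterior descending artery, which feeds the front wall of the left ventricle, had been tied off. Sham animals had control surgery. The other 8 libraries came from ligated hearts given a soft (MI_soft) or a stiff (MI_stiff) hydrogel. A hydrogel is a water-swollen polymer network, injected here into the heart wall. These 8 libraries entered the gene filter, the scaling between libraries and the shared estimate of the spread between libraries, but not the difference itself. The tissue is labelled as the infarct zone in every library, Sham included. The labels used here give no strain, sex, age, genotype or time after surgery. Their extraction text also mentions MI/R, which commonly stands for infarction followed by reperfusion, so whether flow was restored is unknown. The labels do not tie each library to its own animal. All p-values therefore measure only how far these samples spread, and that spread may be technical.

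A blocked coronary artery kills the muscle it supplies, and the heart does not replace it. Inflammatory cells clear the dead tissue, fibroblasts lay down collagen, and the surviving muscle shifts from burning fatty acids towards a fetal pattern of contractile and metabolic genes. In bulk tissue, fewer cells of a type and less RNA per cell cannot be told apart, and that holds for each fall or rise below.

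Levels are CPM, each gene's count relative to its library's total after scaling between libraries, and differences are MI minus Sham in log2 units, each ± its standard error (SE) from the fit. A gene was called higher or lower in MI at an adjusted p under 0.05 in edgeR's quasi-likelihood test. Of 11376 genes tested, 36.6% were called, 20.2% higher and 16.4% lower, and the median difference over all tested genes was 0.06. In 17.7% of tested genes all MI libraries lay above all Sham libraries, and in 20.3% all lay below, 38% together. Among genes called higher, 1693 differed by over 2-fold, 652 by over 4-fold and 128 by over 16-fold. Among genes called lower the numbers were 1410, 603 and 58. Of the 7211 genes not called, 2629 had a 95% confidence interval within 2-fold in either direction, and the rest were not resolved at this spread. The counts of list members below are to be read against those shares of called genes. The plot of gene list members shows them by role.

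**Figure D1:**
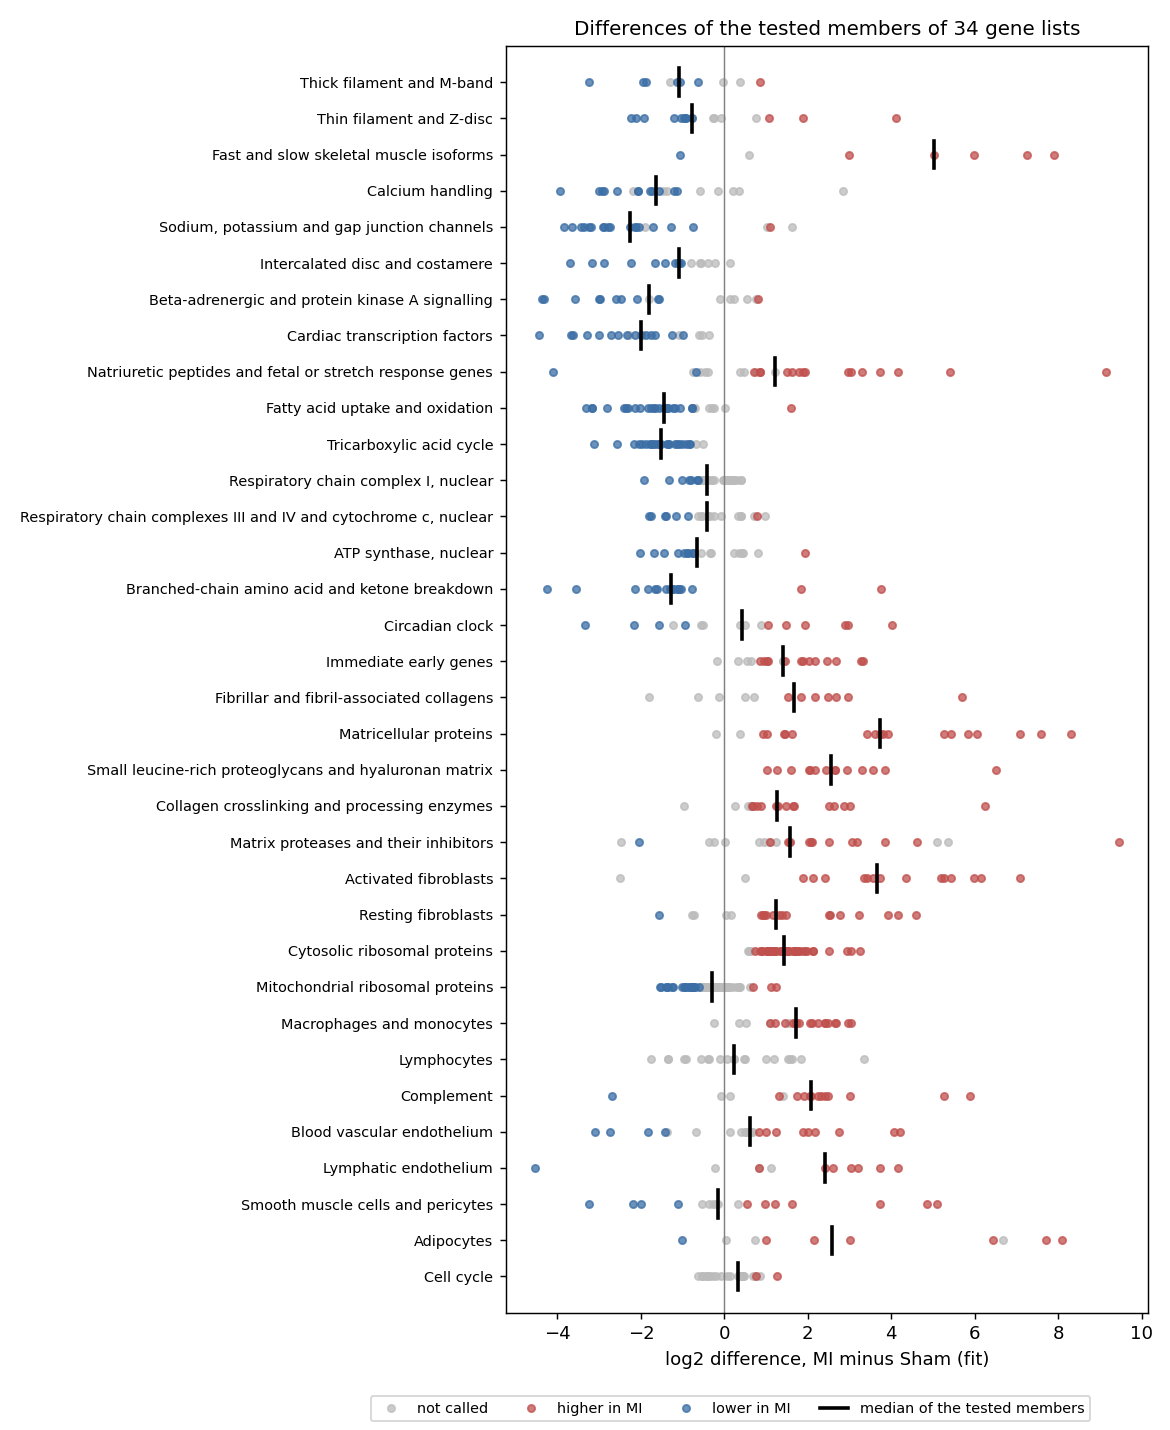
Each point is a tested gene of 1 of 34 gene lists, placed by its fitted log2 difference, MI minus Sham, coloured by whether it was called higher, lower or neither, and the black bar is the median of the list. Channel, transcription factor, fatty acid and tricarboxylic acid cycle lists lie left of 0, the matricellular, cytosolic ribosomal and macrophage lists lie right of it, and points of genes without a count in Sham have no exact position.

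Heart muscle genes were among the most abundant in both groups, while the marker that defines the ventricle was low. Apart from mitochondrially encoded genes, the most abundant transcript per length in Sham was Mb, the oxygen store myoglobin, at 11230 TPM (transcript abundance corrected for length), with Actc1 at 10900 TPM next. In MI the order was Cryab, a small heat shock protein of muscle, at 7284 TPM, Mb at 7265 TPM and Nppa, an atrial natriuretic peptide, at 6674 TPM. Nppa stood at 144 TPM in Sham. Mgp, a matrix protein that restrains calcification, rose from 513 to 6618 TPM. Myl2, the regulatory light chain that defines ventricular muscle, was low throughout, at 40.1 to 78.3 TPM in Sham and 51.8 to 71.7 in MI, and the cause was not tested. The atrial light chain gene Myl7 lay between 0.47 and 107 TPM in Sham and between 0 and 27.7 in MI.

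More sarcomere genes fell than rose. Of 10 tested thick filament and M-band genes 6 were lower and 1 higher (median -1.10), and of 17 thin filament and Z-disc genes 9 were lower and 3 higher (median -0.77). Myh6, the fast alpha myosin heavy chain of the adult rat heart, had 22760, 14380, 24340 and 21220 CPM in Sham 1 to 4 and 3703, 859.6, 2183 and 1999 in MI 1 to 4. The groups did not overlap, and MI 1 was the highest MI library. Myh7, the slow beta myosin of the fetal heart, had 3100, 3210, 4204 and 4152 CPM in Sham and 8177, 4743, 7521 and 6255 in MI, again without overlap. Its rise of 0.86 ± 0.31 (edgeR adjusted p = 0.0362) was lost with MI 1 left out (0.75, adjusted p = 0.0737) and with any other of these libraries except MI 2 left out, at adjusted p between 0.0507 and 0.092. Actc1, cardiac alpha-actin, fell by 1.04 ± 0.21, and the inhibitory troponin subunit Tnni3 fell by 1.21 ± 0.25, each with all MI libraries below all Sham libraries. Tnnt2, the troponin subunit that binds tropomyosin, did not pass, with 5226, 4208, 5714 and 5103 CPM in Sham and 3288, 3777, 6874 and 5088 in MI. Xirp2, an actin-binding protein of the cell junctions, went the other way, from 366, 359, 312 and 299 CPM in Sham to 1159, 1176, 1214 and 1360 in MI, a rise of 1.88 ± 0.35.

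Shares within pairs of related genes do not depend on the scaling between libraries. Of 9 pairs compared by TPM, 6 differed with no overlap of the groups, each at the smallest p that 4 against 4 libraries allow (two-sided exact permutation test, p = 0.0286, adjusted over the pairs 0.0429). Myh7 made up 14.7%, 24.8%, 16.6% and 20.9% in Sham and 70.6%, 84.7%, 77.7% and 76.1% in MI of the myosin pair, Myh7 and Myh6. Acta1, the skeletal alpha-actin of the fetal heart, made up 11.3%, 12.5%, 9.89% and 9.14% in Sham and 42.4%, 28.5%, 22.1% and 23.8% in MI of the pair with Actc1. Tnni1, the slow skeletal troponin I, made up 0.00893%, 0.0186%, 0.0123% and 0.00983% in Sham and 1.66%, 0.138%, 0.211% and 0.0672% in MI of the pair with Tnni3, and without MI 1 the difference went from 0.508 to 0.126 percentage points. MI 1 had the highest share of Acta1 and of Tnni1 and the lowest of Myh7 among MI libraries. In metabolism, Cpt1a, the liver form of the gate for long-chain fatty acids, made up 5.69%, 7.07%, 5.17% and 7.02% in Sham and 8.78%, 17.9%, 14.3% and 17.6% in MI of the pair with the muscle form Cpt1b. The share of Slc2a1, the insulin-independent glucose transporter, in the pair with Slc2a4 was 6.25%, 3.68%, 5.65% and 5.11% in Sham and 13.2%, 18.2%, 10.4% and 27.1% in MI. Cox6a1, the widely expressed form of a cytochrome oxidase subunit, made up 7.72%, 6.42%, 6.48% and 6.73% in Sham and 13.7%, 14.6%, 17.97% and 15.6% in MI of the pair with the muscle form Cox6a2. A share can differ without a call for its numerator: Acta1 (0.76 ± 0.29, adjusted p = 0.0511) and Slc2a1 (-0.27 ± 0.27, adjusted p = 0.448) did not pass in edgeR's test. The shares of Ckb with Ckm, Ldha with Ldhb and Col1a1 with Col3a1 overlapped between the groups, with differences of 9.46, 3.61 and -7.75 percentage points (exact permutation p = 0.114, 0.257 and 0.143).

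**Figure D2:**
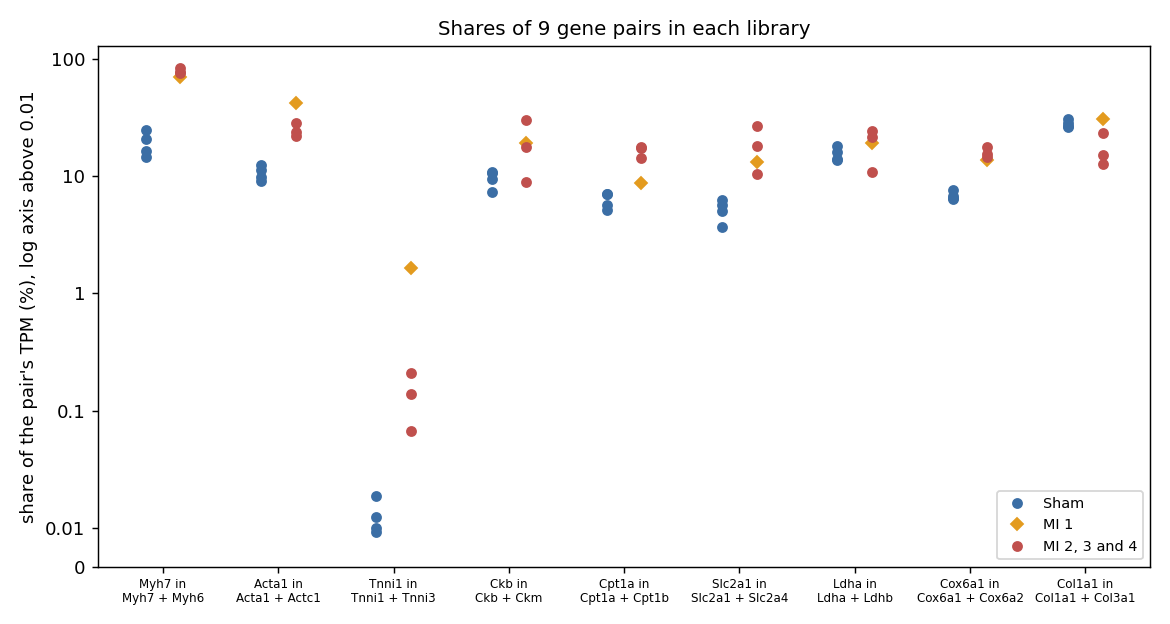
For 9 gene pairs, the share of the first gene in the summed TPM of the pair is plotted in percent for each Sham (blue) and MI (red, with MI 1 as an orange diamond) library, on an axis that is logarithmic above 0.01. The Myh7 share lies between 14.7% and 24.8% in Sham and between 70.6% and 84.7% in MI, while the Ckb, Ldha and Col1a1 shares overlap.

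Genes that move calcium in heart muscle were lower, 12 of 20 tested with 0 higher (median -1.65). Atp2a2, the pump that refills the calcium store, had 15320, 16050, 15120 and 13360 CPM in Sham and 2771, 1429, 3745 and 2092 in MI. Ryr2, the channel that releases calcium from the store, had 974, 715, 714 and 928 CPM in Sham and 202, 25.5, 128 and 93.7 in MI, a difference of -2.89 ± 0.60 (adjusted p = 0.00132). Slc8a1, the exchanger that removes calcium across the cell membrane, had 93.4, 60.2, 50.8 and 88.7 CPM in Sham and 13.3, 0.838, 3.85 and 0.638 in MI. No MI library reached a Sham library in any of the 3, which the rule for the largest falls required of Slc8a1. MI 1 held the highest MI level of Ryr2 and Slc8a1. The pump inhibitor Pln fell by 2.06 ± 0.22, and Jph2, which holds the store next to the surface membrane, fell by 3.01 ± 0.53.

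Genes of ion channels and cell junctions were lower too. Of 21 tested sodium, potassium and gap junction channel genes 17 were lower and 1 higher, with a median of -2.27. Scn4b, an accessory subunit of sodium channels, had 147, 268, 202 and 175 CPM in Sham and 15.1, 16.2, 20.1 and 11.8 in MI. Kcnk3, a background potassium channel, had 145, 118, 136 and 111 CPM in Sham and 32.6, 1.68, 5.07 and 7.11 in MI. All MI libraries were below all Sham libraries in both genes, as the rule for the largest falls required. MI 1 lay inside the range of the other MI libraries in Scn4b and above them in Kcnk3. Kcnj3, a potassium channel opened by G proteins, had 61.9, 60.7, 51.3 and 60.2 CPM in Sham and 5.35, 2.51, 6.75 and 1.55 in MI. Gja1, the main gap junction protein of the ventricle, had 824, 852, 804 and 807 CPM in Sham and 184, 92.7, 288 and 179 in MI. The channel gene that rose was Gja5, a connexin of conduction tissue and arteries (1.10 ± 0.36, adjusted p = 0.0253), a call lost without MI 4 (0.82, adjusted p = 0.0986), Sham 1 (1.10, 0.0546) or Sham 4 (1.07, 0.0608). Of 16 intercalated disc and costamere genes 10 were lower and 0 higher (median -1.09), and the desmosomal cadherin Dsg2 fell furthest, from 47.4, 28.3, 32.1 and 46.3 CPM in Sham to 6.58, 3.85, 1.03 and 0 in MI.

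Adrenaline raises the force of the heart through the beta1 receptor, cyclic AMP and protein kinase A. Of 17 tested genes of that route 10 were lower and 1 higher (median -1.80). The receptor gene Adrb1 had 30.7, 29.7, 37.03 and 24.2 CPM in Sham and 9.65, 0.586, 1.97 and 2.73 in MI. All 4 MI values lay below all Sham values, a difference of -2.998 ± 0.59 (adjusted p = 0.000885). Adcy5, a cardiac enzyme that makes cyclic AMP, had 343, 294, 293 and 293 CPM in Sham and 109, 61.9, 53.5 and 62.9 in MI. The list also holds brakes on the route, and they fell too: Pkia, an inhibitor of protein kinase A, from 142, 132, 104 and 127 CPM in Sham to 15.4, 1.68, 5.72 and 1.37 in MI, and Pde3a, an enzyme that breaks down cyclic AMP, from 78.1, 45.98, 56.3 and 73.5 to 8.18, 0, 2.25 and 1.82. The differences were -4.36 ± 0.79 for Pkia and -4.33 ± 0.84 for Pde3a, with no overlap of the groups, as the rule for the largest falls required. Grk5, a kinase that switches the receptor off, rose by 0.80 ± 0.25 (adjusted p = 0.0178), and lost its call without MI 4 (0.64, adjusted p = 0.0689) or Sham 3 (0.72, 0.0561).

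Transcription factors that set heart muscle identity and energy supply were low in MI. Of 21 tested 15 were lower and 0 higher, with a median of -2.01, and in 18 all MI libraries lay below all Sham libraries. Tbx20, a T-box factor of the heart, had 33.6, 11.4, 16.3 and 30.4 CPM in Sham and 2.95, 0, 0 and 1.002 in MI, where 2 libraries had no count. Nkx2-5, the homeobox factor of cardiac muscle, had 99.2, 97.4, 146 and 78.6 CPM in Sham and 66.1, 28.99, 14.9 and 4.37 in MI. Ppargc1a, the coactivator of mitochondrial genes, had 17.2, 12.01, 10.5 and 19.7 CPM in Sham and 1.598, 0.921, 2.53 and 1.002 in MI. Ppara, the receptor that turns on fatty acid oxidation, had 17.8, 13.8, 9.16 and 23.1 CPM in Sham and 3.32, 0.921, 1.03 and 2.64 in MI. The 4 genes share the order of groups with no overlap, and their differences ran from -4.45 ± 1.05 for Tbx20 to -1.88 ± 0.52 for Nkx2-5. MI 2, 3 and 4 also held fewer genes at 1 to 4 counts over the whole table, 324 to 462 against 1063 to 1196 in Sham. The part of this in the lowest values here was not tested. With MI 1 as the lone MI library 3 of the 21 were called and the median was -1.04. Klf15, a factor of amino acid and lipid metabolism, did not pass (-0.54 ± 0.27, adjusted p = 0.129).

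Genes of stretch and wall stress rose, 15 of 25 tested with 2 lower (median 1.20). Nppa had 57.4, 229, 128 and 29.2 CPM in Sham and 3654, 5089, 3770 and 6445 in MI, and Nppb, the other natriuretic peptide, 206, 195, 198 and 104 and 391, 511, 475 and 625. Nppa varied widely among Sham libraries, and yet every MI library lay above them all in both genes. For Nppa the rule for the largest rises required this. Corin, the protease that turns the Nppa precursor into the active hormone, moved against it, from 66.4, 52.03, 49.8 and 58.3 CPM in Sham to 10.1, 0, 1.59 and 1.002 in MI (-4.11 ± 0.99, adjusted p = 0.00401). Ankrd2, a stretch-responsive protein of slow muscle, had 0 counts in Sham and 203, 59, 3 and 46 counts in MI 1 to 4, at least 22.2-fold higher against a floor of 3 counts per Sham library, and at least 12.7-fold without MI 1. MI 3 was itself at that floor. Ankrd1, its relative in heart muscle, overlapped between the groups (2458, 3398, 2521 and 1924 CPM in Sham, 3301, 3544, 5120 and 4947 in MI). The rise of Ankrd1, 0.71 ± 0.25 at adjusted p = 0.0347, was lost without MI 3, MI 4, Sham 1, Sham 3 or Sham 4 (0.60 to 0.70, adjusted p 0.0742 to 0.108).

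**Figure D3:**
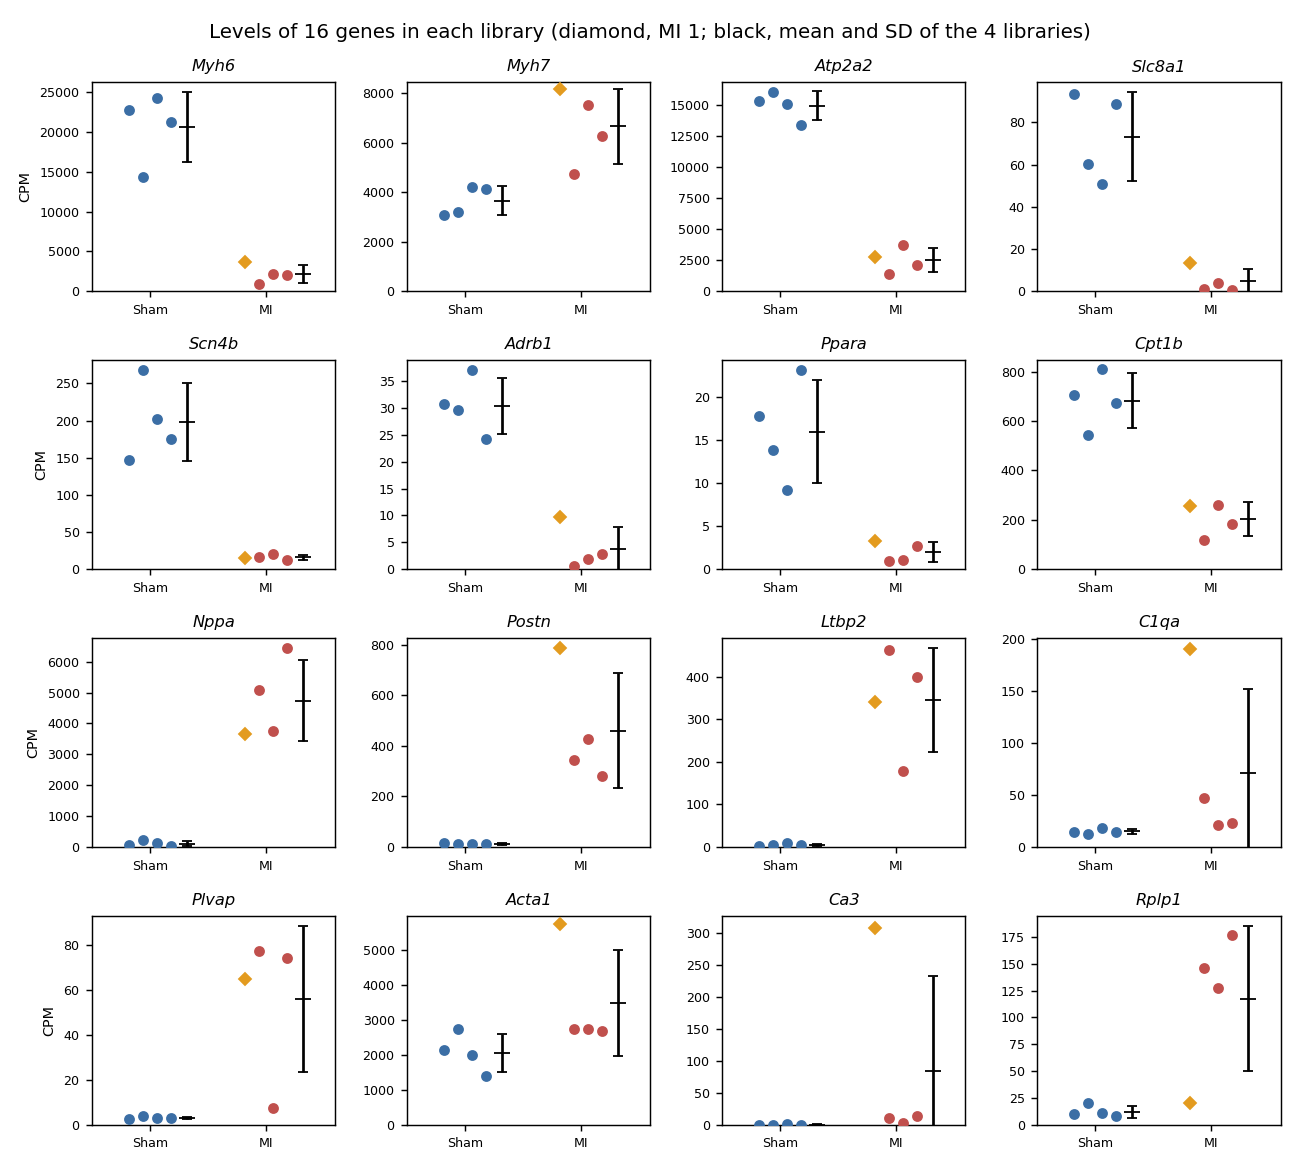
Levels of 16 genes in CPM are plotted for each Sham (blue) and MI (red, with MI 1 as an orange diamond) library, each panel with its own axis from 0, and black marks give the mean and SD of the 4 libraries. Myh6, Atp2a2, Scn4b and Cpt1b separate the groups downwards and Nppa, Postn and Ltbp2 upwards, while Acta1, Ca3, C1qa and Postn are highest and Rplp1 is lowest in MI 1 among MI libraries.

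Heart muscle draws most of its energy from fatty acids. Of 31 tested genes of their uptake and oxidation 24 were lower and 1 higher, with a median of -1.44. Acsl1, which activates long-chain fatty acids, had 1294, 1250, 1296 and 1173 CPM in Sham and 236, 99.8, 232 and 151 in MI. Cpt1b, the muscle gate into the mitochondrion, had 706, 542, 812 and 673 CPM in Sham and 256, 118, 259 and 181 in MI. Pdk4, the kinase that turns pyruvate away from oxidation, had 121, 93.4, 86.8 and 123 CPM in Sham and 9.53, 2.85, 12.9 and 22.1 in MI. In these 3 no MI library reached the Sham range, and MI 2 was the lowest. Acacb, which makes the natural inhibitor of the Cpt1 gate, fell by 3.30 ± 0.54 and Lpin1, an enzyme of triglyceride synthesis and a coactivator of fat oxidation, by 3.99 ± 0.64. The list member that rose was Angptl4, an inhibitor of lipoprotein lipase, from 10.03, 3.595, 9.24 and 6.18 CPM in Sham to 15.7, 27.6, 23.1 and 22.5 in MI (1.61 ± 0.36, adjusted p = 0.0025).

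Inside the mitochondrion, the fall was uneven between the cycle and the chain. Of 25 tested tricarboxylic acid cycle genes 23 were lower and 0 higher (median -1.53). Cs, citrate synthase, had 722, 600.1, 738 and 699 CPM in Sham and 184, 56.1, 122 and 102 in MI, and Ogdh, the oxoglutarate dehydrogenase subunit, 1901, 1519, 1820 and 1761 and 490, 59.1, 125 and 130.5. The counts of Ogdh are identical to those of another listed gene, so its level is uncertain. Among nuclear genes of respiratory complex I 7 of 33 were lower and 0 higher (median -0.43), and 12 were lower without MI 3. Among those of complexes III and IV 6 of 20 were lower and 1 higher (median -0.41), and among those of ATP synthase and its carriers 9 of 18 were lower and 1 higher (median -0.65). Ndufs1, the largest complex I subunit, fell by 1.92 ± 0.23, with 1357, 1365, 1296 and 1287 CPM in Sham and 350, 233, 523 and 295 in MI. Vdac1, the main pore of the outer membrane, fell by 2.03 ± 0.33. Atp5if1, the inhibitor of ATP synthase, was the member that rose, with 36.5, 50.4, 43.01 and 39.5 CPM in Sham and 56.9, 149.5, 205 and 239 in MI. Without MI 1 the number of ATP synthase genes called higher went from 1 to 4. The difference between the cycle and the chain was not tested as such, and transcript length, which moved with the groups, differed between these lists: complex I genes had a median relative length of 0.203 and cycle genes one of 0.842. With offsets for transcript length 17 of 33 complex I genes and 25 of 25 cycle genes were lower.

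Other fuels followed the same direction. Of 19 tested genes for the breakdown of branched-chain amino acids and ketone bodies 17 were lower and 2 higher (median -1.27). Ppm1k, the phosphatase that switches branched-chain breakdown on, had 58.4, 36.4, 38.3 and 54.7 CPM in Sham and 6.58, 0, 5.16 and 4.19 in MI. Bcat1, the cytosolic enzyme of the opening step, rose from 4.43, 3.78, 1.63 and 3.96 CPM in Sham to 40.9, 65.2, 36.8 and 43.5 in MI (3.75 ± 0.39, adjusted p = 2.28e-06). Of 22 genes of glucose uptake, glycolysis and lactate 11 were lower and 0 higher (median -0.68). Slc2a4, the insulin-responsive glucose transporter, had 426, 468, 488 and 404 CPM in Sham and 146, 87.1, 122 and 62.7 in MI, and Hk2, the hexokinase that follows it, 69.7, 47.7, 57.5 and 60.7 and 19.6, 2.35, 8.72 and 2.37.

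Ribosomal protein genes moved apart by compartment. Of 45 tested cytosolic ribosomal protein genes 40 were higher and 0 lower, with a median of 1.44, whereas of 59 mitochondrial ribosomal protein genes 3 were higher and 19 lower, with a median of -0.29. Rpl3, a core protein of the large subunit, had 118, 141, 121 and 115 CPM in Sham and 596, 905, 907 and 1367 in MI. Rps12 of the small subunit had 60.9, 45.2, 71.5 and 53.6 CPM in Sham and 194, 482, 381 and 836 in MI. All MI libraries were above all Sham libraries in both genes, and MI 1 was the lowest MI library. The summed level of the 49 cytosolic genes with a row was 6286 to 7794 CPM in Sham and 14521 to 26357 in MI. With MI 1 as the lone MI library 18 of the 45 were called higher, with a median of 1.07. Rplp1, of the ribosomal stalk, had 10.1, 20.2, 10.7 and 8.003 CPM in Sham and 20.4, 146, 127 and 177 in MI, with MI 1 far below the other MI libraries. Rps12 and Rplp1 each have counts identical to those of another listed gene, so their levels are uncertain. Ribosomal protein genes have many near-identical pseudogenes, and how the counting split reads between them was not tested.

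Short transcripts were higher in MI libraries than long ones over the whole table, and ribosomal protein transcripts are short. Relative transcript length was taken as the count divided by the TPM, scaled within each library. Genes were put in 10 equal bins by that length. In the shortest bin the median difference was 0.35, with 313 higher and 109 lower of 1068, and in the longest bin it was -0.21, with 154 higher and 209 lower. The gradient was widest in MI 2, from 0.44 to -0.42, and narrower in MI 1, from 0.15 to -0.20. Among Sham libraries it varied in direction, from 0.161 to -0.136 in Sham 3 and from -0.084 to 0.106 in Sham 4. Cytosolic ribosomal protein genes had a median relative length of 0.159, within the shortest bin. With offsets that follow each library's trend on length, 39 of 45 were higher and the median was 1.08. Over all genes those offsets gave 4233 calls against 4165. The part of transcript length in other results was tested only by those offsets.

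**Figure D4:**
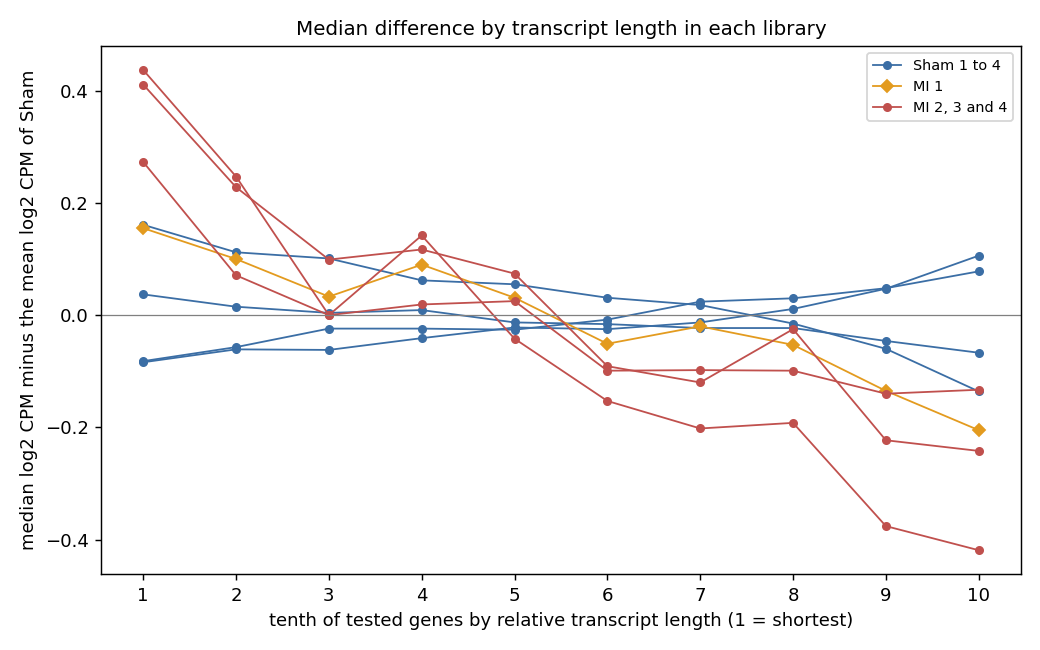
Medians over genes of the log2 CPM minus the mean of Sham are plotted for each library by bin of relative transcript length, from the shortest at 1 to the longest at 10. MI 2, 3 and 4 (red) run from 0.27 to 0.44 in the shortest bin down to -0.13 to -0.42 in the longest, and MI 1 (orange) from 0.155 to -0.205. The Sham libraries (blue) slope both ways, Sham 3 from 0.161 to -0.136 and Sham 4 from -0.084 to 0.106.

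Stress and clock genes changed in both directions. Of 25 tested antioxidant genes 9 were higher and 5 lower (median 0.09). Mt2A, a metallothionein that binds zinc and copper, had 1.17, 3.69, 2.096 and 1.27 CPM in Sham and 21.8, 104, 33.8 and 49.8 in MI. Gpx8, a peroxidase of the endoplasmic reticulum, had 6.61, 6.24, 7.07 and 6.82 CPM in Sham and 36.3, 46.2, 39.1 and 42.6 in MI, a tight rise of 2.62 ± 0.20. The mitochondrial enzymes Sod2 and Prdx3 fell by 1.36 ± 0.20 and 1.28 ± 0.23. Of 25 genes of endoplasmic reticulum and integrated stress 10 were higher and 1 lower (median 0.69), and Ddit3, which encodes the stress factor CHOP, had 19.4, 20.1, 23.8 and 17.7 CPM in Sham and 34.8, 54.9, 50.6 and 65.8 in MI. Foxo1, a factor of autophagy and atrophy genes, fell from 17.8, 17.2, 13.7 and 19.6 to 5.102, 0, 0.563 and 1.91 CPM. Of 19 heat shock genes 4 were higher and 6 lower (median -0.36).

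In the circadian clock Arntl and its partners turn on the Per genes and Dbp. The Per proteins then act back on Arntl and its partners in a loop. Of 16 tested clock genes 6 were higher and 4 lower (median 0.43), with 2 lower when Sham 1 was left out. Arntl had 49.8, 55.1, 52.8 and 48.3 CPM in Sham and 10.3, 12.1, 9.76 and 13.5 in MI, each group within a narrow range. Per2 had 13.99, 12.8, 11.8 and 12.2 CPM in Sham and 58.2, 88.6, 143 and 84.01 in MI, and Dbp 9.87, 10.2, 10.2 and 9.43 and 175, 56.4, 48.9 and 31.6. All 3 genes separated the groups without overlap, with differences of -2.17 ± 0.38 for Arntl, 2.88 ± 0.35 for Per2 and 2.98 ± 0.64 for Dbp. The labels used here give no hour of tissue collection, so collection time and surgery cannot be told apart.

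Immediate early genes respond within minutes to growth signals, stretch and handling. Of 19 tested 13 were higher and 0 lower (median 1.42). Fos, an AP-1 subunit, had 1.399, 3.22, 2.64 and 0.951 CPM in Sham and 24.4, 19.5, 25.1 and 12.7 in MI, with no overlap. Because the members moved together, the 250 bases before each gene's start were searched for motifs on both strands, in RefSeq sequences of assembly GRCr8. The motifs were the cyclic AMP response element TGACGTCA, the AP-1 motif TGANTCA and 1 fixed form of the serum response element, without variable letters. None of them contains another. The cyclic AMP response element occurred in 4 of the 12 members with a sequence (Btg2, Dusp1, Jund and Maff), against 1.7% of 27457 genes, 2.61% of genes called higher, 2.48% of those called lower and 2.94% of those not called. The fixed form of the serum response element occurred in 1 of 12 members, Egr1, and in 10 of 27457 genes. Other forms of that element were not searched, so these counts do not show how common it is in these windows. The AP-1 motif occurred in 0 of 12 members, and in 6.15% of genes called higher, 3.93% of those called lower, 4.0% of those not called and 6.36% of all. A match describes letters in this window and is no evidence of binding. The 3 matching genes that were called higher, chosen after their values were seen, are shown with the element in capitals, 5′ to 3′ up to the last base before the start.
Btg2, chr13:48087691-48087940 (minus strand): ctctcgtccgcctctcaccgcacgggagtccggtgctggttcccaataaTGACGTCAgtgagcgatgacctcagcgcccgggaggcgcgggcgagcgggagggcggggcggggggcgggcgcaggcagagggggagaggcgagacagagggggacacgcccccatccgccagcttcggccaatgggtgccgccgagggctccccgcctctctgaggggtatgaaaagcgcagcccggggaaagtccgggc
Dusp1, chr10:17184603-17184852 (plus strand): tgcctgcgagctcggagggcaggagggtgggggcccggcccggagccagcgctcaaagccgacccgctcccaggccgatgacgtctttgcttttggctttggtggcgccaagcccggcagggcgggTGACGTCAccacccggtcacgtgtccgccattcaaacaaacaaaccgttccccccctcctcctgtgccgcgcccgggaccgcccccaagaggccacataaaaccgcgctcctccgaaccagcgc
Maff, chr7:112792537-112792786 (plus strand): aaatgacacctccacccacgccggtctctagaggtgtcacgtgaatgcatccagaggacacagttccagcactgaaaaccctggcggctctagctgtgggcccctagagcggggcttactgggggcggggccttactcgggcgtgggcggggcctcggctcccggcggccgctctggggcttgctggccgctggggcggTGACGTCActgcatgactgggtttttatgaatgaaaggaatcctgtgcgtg

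In the deposited counts Btg2, an inhibitor of cell growth, had 64.7, 47.5, 57.2 and 42.9 CPM in Sham and 98.2, 155, 79.7 and 75.6 in MI. Dusp1, a phosphatase that ends MAP kinase signals, had 62.9, 99.4, 112 and 78.8 CPM in Sham and 171, 228, 178 and 149 in MI. Maff, a small bZIP factor, had 8.94, 14.2, 11.96 and 7.13 CPM in Sham and 27.1, 43.3, 36.3 and 65.9 in MI. Maff rose furthest of the 3 (2.03 ± 0.28), and all 3 separated the groups. The element starts at base -201 in Btg2, -124 in Dusp1 and -51 in Maff, counted back from the start.

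Matrix lists held more members that rose than fell. Of 12 tested fibrillar and fibril-associated collagens 7 were higher and 0 lower (median 1.68), of 19 matricellular proteins 17 and 0 (median 3.74), and of 14 small leucine-rich proteoglycans and hyaluronan genes 14 and 0 (median 2.55). Col3a1, the fine-fibre collagen, had 1451, 1035, 1084 and 1576 CPM in Sham and 11540, 9520, 7127 and 11930 in MI, and Col1a1, the main scar collagen, 529.7, 349, 443 and 514 and 4662, 2626, 951 and 1952. All MI libraries lay above Sham in both, with Col1a1 highest in MI 1 and lowest in MI 3. Col11a1, a nucleator of fibrils in cartilage, had 0.855, 0, 0.466 and 0.396 CPM in Sham and 25.1, 17.8, 4.22 and 46.01 in MI. Lum, which spaces collagen fibrils, had 134, 208, 127 and 147 CPM in Sham and 937, 1159, 1284 and 1327 in MI, close together within each group.

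Matricellular proteins sit in the matrix and signal to cells. Postn had 15.7, 9.84, 12.5 and 9.83 CPM in Sham and 787, 343, 428 and 281 in MI. Ccn5, a CCN family protein that opposes fibrosis, had 0.466, 1.42, 1.09 and 1.43 CPM in Sham and 185, 325, 99.3 and 235 in MI. Thbs4, a thrombospondin of tendon and stressed heart, had 2.33, 2.27, 4.97 and 0.713 CPM in Sham and 332, 335, 271 and 472 in MI. The groups did not overlap in these 3 genes, as the rule for the largest rises required. The differences were 7.58 ± 0.46 for Ccn5 and 7.09 ± 0.49 for Thbs4. Fn1, fibronectin, had 66.6, 58.9, 61.9 and 79.2 CPM in Sham and 1001, 1080, 637 and 565 in MI. Tnn, a tenascin of bone and tendon, had no count in Sham and 75, 35, 11 and 38 counts in MI 1 to 4, at least 12.2-fold higher against the same floor.

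Genes that build and tie the matrix rose too. Of 17 elastic fibre genes 14 were higher and 0 lower (median 2.20), and of 18 collagen crosslinking and processing enzymes 14 and 0 (median 1.26). Ltbp2, which stores on elastic microfibrils, had 3.03, 4.07, 8.696 and 3.72 CPM in Sham and 341, 464, 179 and 399 in MI. Loxl1, a crosslinking oxidase of elastin, had 28.9, 38.03, 34.5 and 34.6 CPM in Sham and 464, 308, 130.1 and 196 in MI, and Plod2, which makes the stable crosslinks of scar collagen, 23.4, 27.9, 19.9 and 23.5 and 107, 211, 184 and 184. Lox itself did not pass (0.63 ± 0.77, adjusted p = 0.549). Of 24 proteases and inhibitors 12 were higher and 1 lower (median 1.57). Timp1, an inhibitor of matrix proteases, had 7.62, 5.11, 9.47 and 6.97 CPM in Sham and 114, 256, 179 and 171 in MI. Mmp2, a gelatinase of fibroblasts, had 144, 129, 160.5 and 146 CPM in Sham and 962, 889, 655 and 808 in MI, whereas Mmp15, a membrane protease, fell from 177, 150.2, 194 and 165 to 77.3, 26.3, 30.2 and 31.1. Mmp12, the elastase of macrophages, had no count in Sham and 322, 19, 43 and 11 counts in MI 1 to 4, at least 26.7-fold higher against the same floor, and at least 8.95-fold without MI 1.

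The cells that make the matrix showed the same direction in markers of rest and of activation. Of 16 activated fibroblast genes 14 were higher and 0 lower (median 3.65), and of 20 resting fibroblast genes 15 and 1 (median 1.24). The activated list shares Thbs4, Ltbp2, Sfrp2 and Tagln with the matricellular, elastic fibre, Wnt and smooth muscle lists, so it is not independent of them. The summed level of the activated list was 96.8 to 132 CPM in Sham and 1570 to 2804 in MI, and that of the resting list 2843 to 3087 and 6403 to 9287. Sfrp2, a secreted Wnt regulator, had 3.03, 2.18, 3.49 and 0.555 CPM in Sham and 199, 98.5, 138 and 151 in MI. Pi16, a marker of adventitial fibroblasts at rest, had 13.2, 12.2, 10.3 and 7.77 CPM in Sham and 121, 268, 114 and 152 in MI. Igfbp6, a binding protein for insulin-like growth factor II, had 10.96, 9.65, 15.7 and 12.2 CPM in Sham and 189, 539.7, 194 and 246 in MI. None of the 3 overlapped, which the rule for the largest rises required of Sfrp2. Of 22 genes of TGF-beta and bone morphogenetic protein signalling 11 were higher and 2 lower (median 0.84), and all 3 ligands rose: Tgfb1 by 1.88 ± 0.34, Tgfb2 by 2.25 ± 0.52 and Tgfb3 by 2.71 ± 0.28. The pathway's mediator Smad3 fell by 1.76 ± 0.50. Of 22 Wnt pathway genes 5 were higher and 4 lower (median 0.38).

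Immune genes rose in part. Of 23 macrophage and monocyte genes 17 were higher and 0 lower (median 1.73), and 11 without MI 1. Lyz2, lysozyme, had 59.3, 62.7, 73.7 and 42.9 CPM in Sham and 604, 342, 301 and 253 in MI. C1qa, a complement starter made by macrophages, had 14.5, 12.9, 17.8 and 14.6 CPM in Sham and 191, 47.5, 21.4 and 22.96 in MI, and the call was lost without MI 1 (1.04, adjusted p = 0.0561). Spp1, osteopontin, had 1.71, 0.851, 0.932 and 1.03 CPM in Sham and 44.2, 84.5, 53.95 and 120.3 in MI, and Gpnmb, of lipid-laden macrophages, 9.56, 8.14, 10.9 and 6.66 and 198, 61.5, 87.5 and 65.5. MI 1 was the highest MI library in Lyz2, C1qa and Gpnmb and the lowest in Spp1. Of 16 complement genes 12 were higher and 1 lower (median 2.07). C4b, a central component, rose from 24.3, 14.6, 15.99 and 9.19 CPM in Sham to 1458, 914, 729.6 and 723 in MI (5.90 ± 0.57, adjusted p = 1.26e-06).

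Lymphocyte genes gave 0 calls of 21 tested in edgeR's test, and 1 at an unadjusted p under 0.05. DESeq2 also gave 0, with 1 lower in limma-voom with library quality weights and 5 lower and 1 higher in edgeR without MI 1. Their summed level was 41.4 to 56.9 CPM in Sham, 172 in MI 1 and at most 42.5 in MI 2, 3 and 4. Cd3e, of the T cell receptor complex, had 0.544, 0.662, 0.543 and 1.66 CPM in Sham and 3.93, 0, 1.97 and 0.911 in MI. Of 16 antigen presentation genes 6 were higher and 0 lower (median 1.19), and 3 without Sham 4. Cd74, the invariant chain, did not pass, with 327, 303, 372 and 288 CPM in Sham and 738, 404, 192 and 299 in MI. Of 27 interferon response genes 6 were higher and 1 lower (median 0.91). Isg15, a ubiquitin-like interferon target, had 6.45, 4.45, 3.96 and 4.12 CPM in Sham and 8.79, 26.5, 21.8 and 38.9 in MI, and its call (2.33 ± 0.83, adjusted p = 0.0357) was lost without any of these libraries other than MI 1 and MI 3 (adjusted p 0.0571 to 0.0921). Of 36 chemokines, cytokines and receptors 21 were higher and 1 lower (median 1.79), with 5 lower without MI 1.

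Vessel genes split. Of 22 tested blood endothelial genes 9 were higher and 4 lower (median 0.61, and -0.19 with MI 1 as the lone MI library). Cdh5, the cadherin that seals endothelial junctions, had 142, 137, 144 and 174 CPM in Sham and 73.2, 15, 80.2 and 53.7 in MI, and fell. Aplnr, the apelin receptor of capillaries, also fell, from 169, 177, 147 and 192 CPM in Sham to 53.5, 42.3, 64.7 and 33.2 in MI. Plvap, which forms the diaphragms of leaky vessels, had 2.41, 3.88, 2.95 and 2.93 CPM in Sham and 64.7, 77.4, 7.69 and 74.3 in MI, and Selp, the selectin of activated endothelium, 1.01, 0.851, 0.854 and 0.792 and 16.5, 20.02, 5.07 and 17.3. MI 3 was the lowest MI library of both, and all MI libraries were above Sham. Vwf, the clotting factor of larger vessels, rose by 1.24 ± 0.26.

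Of 11 lymphatic endothelial genes 7 were higher and 1 lower (median 2.42). Mmrn1, a multimerin of lymphatic vessels and platelets, had 10.6, 8.89, 7.69 and 5.63 CPM in Sham and 49.2, 83.2, 71.6 and 98.3 in MI. Ccl21, the chemokine that lymphatic vessels release, had 24.6, 17.03, 21.7 and 23.2 CPM in Sham and 515, 624, 184 and 224 in MI. Prox1, the factor that defines lymphatic endothelium and is also present in heart muscle, went the other way, with 5.21, 5.77, 3.804 and 11.5 CPM in Sham, 0.984, 0, 0 and 0 in MI and a difference of -4.54 ± 1.10. Without MI 1, the only MI library with a count, the fitted difference was -9.39 against a group at 0, which is no exact size. Among 17 smooth muscle and pericyte genes 7 were higher and 4 lower (median -0.16). Actg2, enteric smooth muscle actin, had 2.95, 2.74, 3.88 and 2.298 CPM in Sham and 55.2, 199, 19.7 and 136 in MI, and Tagln, of contractile smooth muscle and myofibroblasts, 25.96, 14.5, 38.4 and 22.7 and 232, 668, 112 and 337. Rgs5, a pericyte marker, fell from 86.4, 50.04, 51.2 and 76.3 to 30.98, 33.1, 23.8 and 34.1 CPM.

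Cell cycle genes gave 2 higher and 0 lower calls of 26 tested, against 20.2% and 16.4% of all genes, and Mki67, the proliferation marker, had 6.61, 16.5, 5.98 and 9.59 CPM in Sham and 7.07, 10.5, 3.002 and 11.2 in MI. Of 12 epicardial and mesothelial genes 7 were higher and 0 lower (median 2.72). Upk1b, of the mesothelial layer, had counts of 0, 0, 3 and 0 in Sham 1 to 4 and of 24, 132, 41 and 11 in MI 1 to 4, a ratio of 68.1 with a 95% counting interval of 23.0 to 333. Without MI 2 the ratio was 32.7 (10.8 to 162), and without Sham 3, the only Sham library with a count, MI was at least 17.3-fold higher. Hba-a1, a globin of red blood cells, fell from 609, 633, 992 and 884 to 383, 124, 308 and 404 CPM, a call lost without MI 2 (-1.11, adjusted p = 0.0708), Sham 3 (-1.24, 0.0619) or Sham 4 (-1.29, 0.0559).

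List medians for markers of skeletal muscle and fat were highest in MI 1 (6.35 and 3.40) and lowest among MI libraries in MI 3 (0.54 and 0.03). Of 14 skeletal muscle isoform genes with a row 7 passed the filter, and of those 5 were higher and 1 lower. Of the 10 tested adipocyte genes 6 were higher and 1 lower, with 3 higher when any Sham library was left out. All MI libraries lay above all Sham libraries in 4 of the 7 and in 2 of the 10, against 17.7% of all tested genes. Tnnt3, fast skeletal troponin T, had 1.09, 0.473, 0.621 and 0.872 CPM in Sham and 178, 10.6, 3.38 and 3.46 in MI, and Myl1, a fast myosin light chain, 1.09, 1.04, 0.776 and 0.317 and 347, 73.3, 30.1 and 42.5. Ca3, carbonic anhydrase of slow muscle and fat, had 0, 0, 1.32 and 0 CPM in Sham and 307, 10.97, 2.35 and 13.4 in MI. Without MI 1 the difference of Tnnt3 went from 5.97 to 2.90 and that of Ca3 from 7.89 to 4.66, and without Sham 3 Ca3 had no count in Sham. Adipoq, the fat hormone adiponectin, had counts of 0, 0, 0 and 1 in Sham and of 129, 11, 0 and 16 in MI, and lost its call without MI 1 (adjusted p = 0.121) or any Sham library. The summed skeletal muscle list, which includes Ckm of heart muscle, was 2562 to 4512 CPM in Sham and 1195 to 3380 in MI. The summed adipocyte list was 320 to 414 CPM in Sham and 437 to 771 in MI, and Plin1, a lipid droplet protein of fat cells, had no count in Sham, MI 2 and MI 3. Their part in the falls of heart muscle genes was not tested.

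MI 1 differed from MI 2 to 4 in the number of genes with a count. In log2 CPM of nuclear genes it correlated with MI 2, 3 and 4 at 0.871, 0.876 and 0.896. The other pairs of MI libraries gave 0.866, 0.893 and 0.908. With Sham libraries MI 1 gave 0.861 to 0.876, and MI 2 to 4 gave 0.733 to 0.846. At a common total of 6519818 counts from nuclear genes, genes with at least 1 count numbered 12188, 12137, 12116 and 12332 in Sham 1 to 4 and 12660, 10448, 10945 and 11261 in MI 1 to 4 (difference -864, two-sided exact permutation p = 0.143). Without MI 1 that difference was -1308 (exact permutation p = 0.0571, the smallest that 3 against 4 libraries allow), and without MI 2 it was -571.1. MI 2, 3 and 4 had fewer genes than Sham both at the lowest counts and above them. Genes with 1 to 4 counts, at full depth, numbered 1063 to 1196 in Sham and 1049 in MI 1, and 324, 406 and 462 in MI 2 to 4. Genes with at least 5 counts at the common total numbered 10918 to 11078 in Sham, 11469 in MI 1, and 10107, 10539 and 10767 in MI 2 to 4 (difference -264, exact permutation p = 0.429). The share of counts from mitochondrially encoded genes was 27.9% in MI 1, 40.4% to 45.8% in MI 2 to 4 and 35.9% to 50.5% in Sham (difference -1.98 percentage points, exact permutation p = 0.714, and 1.95 without MI 1).

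**Figure D5:**
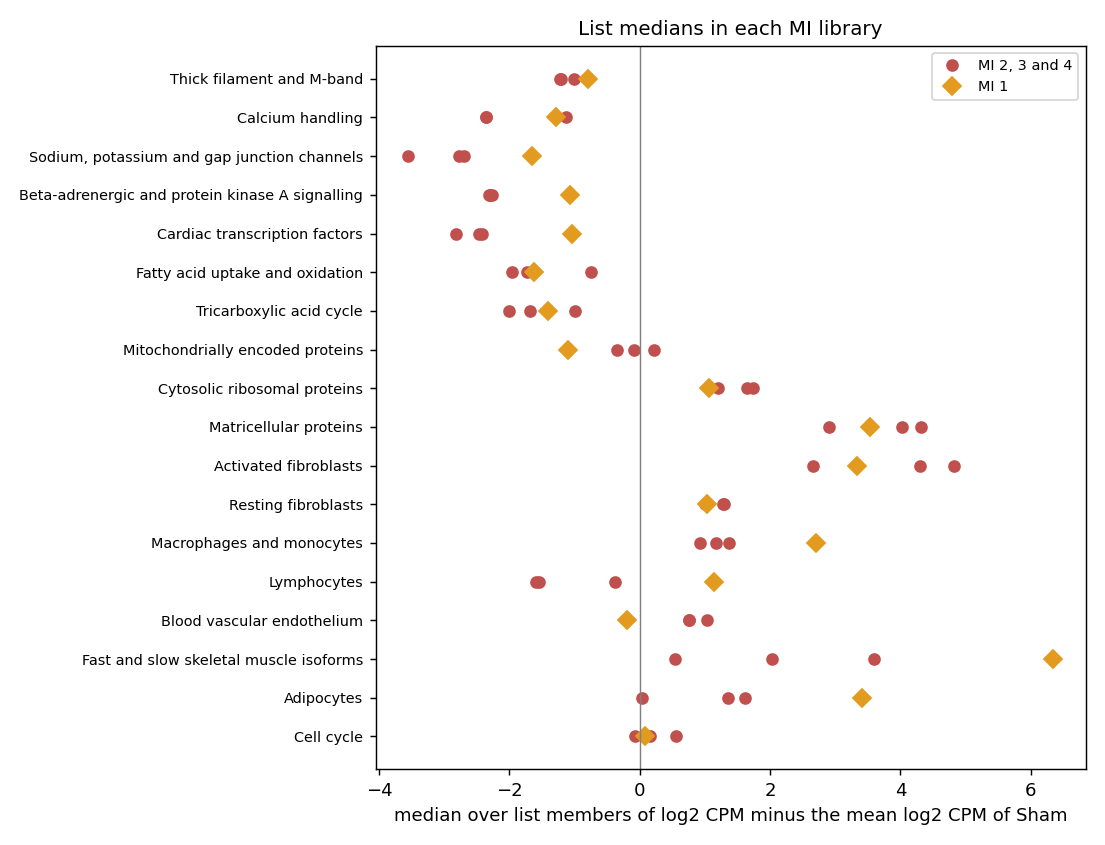
For 18 gene lists, the median over members of the log2 CPM minus the mean of Sham is plotted for MI 1 (orange diamond) and for MI 2, 3 and 4 (red points). MI 1 lies nearest to 0 in the channel, adrenergic and transcription factor lists and furthest right in the skeletal muscle, adipocyte, macrophage and lymphocyte lists.

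In genes called lower MI 1 kept more of the Sham level. It lay above the other MI libraries in 1073 of 1869 such genes (57.4%) and below them in 125 (6.69%). In genes called higher it lay above them in 438 of 2296 (19.1%) and below them in 945 (41.2%). Over all tested genes MI 1 lay above the other MI libraries in 32.4% and below them in 24.4%. Among all called genes the highest MI library was MI 1 in 36.3%, MI 2 in 24.1%, MI 3 in 20.6% and MI 4 in 18.9%. The lowest was MI 1 in 25.7%, MI 2 in 28.5%, MI 3 in 26.9% and MI 4 in 14.8%. The median difference from Sham in genes called lower was -1.10 in MI 1, -1.93 in MI 2, -1.46 in MI 3 and -1.63 in MI 4, and in genes called higher it was 1.16, 1.56, 1.21 and 1.40. MI 1 lay within the Sham range in 207 genes called higher and 93 called lower. Without MI 1 3859 of the 4165 calls held in the same direction, 306 were lost and 890 were new.

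By the rule for the genes with MI 1 furthest above the other MI libraries, Ighe, an immunoglobulin heavy chain gene of antibody-secreting cells, led, with 6.45, 6.34, 2.95 and 7.53 CPM in Sham and 208, 4.11, 3.38 and 5.83 in MI. Its call was lost and its sign turned without MI 1 (-0.39, adjusted p = 0.698), and the call was also lost without any Sham library (adjusted p 0.0647 to 0.0885). Synpo2, an actin-binding protein of Z-discs and smooth muscle, had 185, 116, 168 and 190.2 CPM in Sham and 111, 7.88, 10.5 and 13.8 in MI, and Jph2 484, 345, 528 and 358 and 148, 25.6, 17.6 and 20.3. Sptb, the spectrin of red blood cells and muscle, had 96, 51.2, 66.8 and 99.3 CPM in Sham and 32.8, 0, 5.35 and 2.92 in MI. Synpo2, Jph2 and Sptb lay below Sham in all 4 MI libraries, with MI 1 nearest to it. Without MI 1 the differences went from -2.20 to -3.94 for Synpo2 and from -2.91 to -4.84 for Sptb, and without MI 2, MI 3 or MI 4 the call of Synpo2 was lost (adjusted p 0.0577 to 0.0664).

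In the genes with MI 1 furthest below the other MI libraries, ATP8, a mitochondrially encoded subunit of ATP synthase, led, with 79.1, 146, 32.5 and 95.01 CPM in Sham and 20.7, 213, 949 and 532 in MI. MI 1 lay below every Sham library and the other MI libraries above them all, and the call (2.28 ± 0.77, adjusted p = 0.0272) was lost without MI 3, MI 4, Sham 1, Sham 3 or Sham 4 (1.53 to 2.32, adjusted p 0.0562 to 0.119). Rplp1, described above, came next. S100a11, a small calcium-binding protein, had 4.51, 9.55, 4.35 and 4.2 CPM in Sham and 18.1, 84.3, 63.05 and 71.3 in MI. Pla2g2a, a secreted phospholipase of inflammation, had 59.1, 47.5, 78.96 and 30.1 CPM in Sham and 69.3, 446, 293 and 469 in MI, so MI 1 lay inside the Sham range. Timp4, the cardiac inhibitor of matrix proteases, had 43.1, 32.3, 29.2 and 28.1 CPM in Sham and 12.6, 71.4, 94.8 and 106 in MI, with MI 1 below every Sham library. The call of Timp4 (1.10 ± 0.41, adjusted p = 0.0432) was lost without any of these libraries other than MI 1 and Sham 1 (adjusted p 0.0757 to 0.143). The list medians of MI 1 and of MI 2 to 4 were 6.35 against 0.54 to 3.59 for skeletal muscle isoforms, 3.40 against 0.03 to 1.61 for adipocytes, 2.71 against 0.92 to 1.37 for macrophages and -0.20 against 0.75 to 1.03 for blood endothelium. Which of these features belongs to the tissue piece and which to the library was not tested.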

How the data were processed

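Gene expression was measured by RNA sequencing in 16 libraries, 4 a group, of which the 4 MI and 4 Sham libraries were compared. Reads were aligned with STAR 2.7.3a and quantified with RSEM 1.3.1 on build rn7, per the submitters' processing notes. The gene annotation and strand setting were not given in the sources used here. The authors deposited expected counts, which were rounded to whole numbers for testing (0.785% of values were not whole), and TPM, used here only for shares within gene pairs, levels per length and relative transcript length. Totals were 10940685 to 14074101 counts a library in the groups compared.

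Genes were filtered by group with filterByExpr and scaled by TMM, and MI was compared with Sham in edgeR 4.0.16 (quasi-likelihood, robust, R 4.3.3) on all 16 libraries, with Benjamini-Hochberg adjustment over 11376 genes. Gene pair shares and library measures had two-sided exact permutation tests over 4 against 4 libraries, whose smallest p is 0.0286. Intervals on counts, and floors of 3 counts per library, cover counting error only. Named genes were marked members of the lists, the largest changes of each list in either direction, the most abundant genes and the gene pairs. Also named were the genes in which MI 1 lay farthest from the other MI libraries. The last rule took the 12 largest rises and 12 largest falls at 50 CPM or more. Those had to show no overlap, counts not identical to another gene's, and a call in the same direction without MI 1. Their lack of overlap and their calls without MI 1 were therefore set by the rule. The members and lists were chosen with earlier results of these data known. The 59 lists hold 1441 entries, of which 1232 are in the table and 1147 passed the filter. Some genes stand in more than 1 list, and the tested entries are 1081 distinct genes. Of all 11376 genes tested, 483 had counts identical to those of another tested gene in every library, and they stayed in the totals of calls. Of 17085 gene names 15039 matched a current and 857 an older symbol of assembly GRCr8, another build than rn7, used for names and promoter sequences. Tested on simulated data for this comparison (11281 genes), the fit recovered 18.4% of 2-fold and 78.6% of 4-fold changes, with 2 false calls among 97. Far fewer genes changed in the simulation than were called here, so these shares do not carry over to the real data. Alternatives were other scalings, filters, limma 3.58.1, DESeq2 1.42.0, log2 TPM, a test against 2-fold and a replicate block. Others were a fit of the MI and Sham libraries alone, leaving out each library and, chosen after seeing the data, offsets for transcript length. The labels say nothing on pairing by replicate number, so the libraries were not treated as paired in the main fit. Some list members are counted but not reported here by name.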

Additional observations from a re-analysis of the deposited data

Results flagged for a closer look

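Dixon's outlier criterion was applied to the 4 libraries of each group for 224 sets of values. In 17 sets (7.59%) a library stood apart from the other 3, where chance gives about 1 in 20 for values without ties. For Prox1, Ca3, Adipoq and Upk1b the other 3 libraries were tied at a count of 0, so the flag was automatic and that rate does not apply. Rplp1 was named because MI 1 lay apart, so the tally of MI 1 is partly set by the choice of genes. MI 1 was that library in 5 sets, Sham 3 in 4, Sham 4 and MI 3 in 3 each, MI 2 and Sham 1 in 1 each. No explanation was tested.

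In MI 1, log2 CPM stood at 12.492 for Acta1 against 11.398 to 11.424 in the other MI libraries and at 6.276 for the protease Mmp15 against 4.726 to 4.965. Rplp1 stood at 4.362 in MI 1 against 6.993 to 7.466. Prox1 stood at 0.187 in MI 1, the only MI library with a count, against -2.694 in the others, the value of a count of 0. The share of Tnni1 in its pair with Tnni3 was 1.664% in MI 1 against 0.0672% to 0.2111%.

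In MI 3, Tnni3 stood at 11.298 against 10.838 to 10.867, Selp at 2.384 against 4.061 to 4.335, and Plvap at 2.972 against 6.02 to 6.277. In MI 2, Ppm1k had no count (-2.694) against 2.12 to 2.751.

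Among Sham libraries, Kcnj3 stood at 5.686 in Sham 3 against 5.916 to 5.955 and Bcat1 at 0.836 in Sham 3 against 1.978 to 2.197. Ca3 (0.56) and Upk1b (-1.368) had counts in Sham 3 only, and Adipoq (-2.097) in Sham 4 only, with -2.694 in the rest of Sham. Nppb stood at 6.706 in Sham 4 against 7.609 to 7.686, Cd3e at 0.863 in Sham 4 against -0.519 to -0.292, and Adcy5 at 8.423 in Sham 1 against 8.193 to 8.198.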

How the results depend on the processing

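The number of genes called was 4165 as reported and between 3350 and 5105 under the other scalings, filters, tools and the log2 TPM fits. It fell to 1125 (691 higher, 434 lower) in the test against a 2-fold change and to 1727 (1247 higher, 480 lower) with MI 1 as the lone MI library, which is assumed to vary like the other groups. These settings ask for a larger change or use fewer libraries. Leaving out each library in turn gave 3315 to 4749 calls, 1828 to 2405 higher and 1480 to 2344 lower. Fitted and scaled without the hydrogel libraries, the same genes gave 3875 calls, 2002 higher and 1873 lower, and the median of all genes was 0.02. The split moved by over 10 percentage points under limma-voom, with 1895 higher and 2337 lower, where the median of all genes was -0.06 against 0.06 as reported.

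With a library left out, the exact permutation test of the gene pair shares cannot go below p = 0.0571, so none of the 6 shares could pass. Their differences in percentage points stayed positive, at 55.56 to 60.25 for Myh7, 14.08 to 20.85 for Acta1, 0.1264 to 0.6586 for Tnni1, 7.299 to 10.35 for Cpt1a, 8.803 to 14.37 for Slc2a1 and 7.797 to 9.217 for Cox6a1. For the other pairs they were 5.685 to 12.84 (Ckb), 1.897 to 6.305 (Ldha) and -11.16 to -5.179 (Col1a1). The difference in genes with a count ran from -1308 to -571.1 and that in the mitochondrial share from -4.008 to 1.95 percentage points.

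Same-numbered libraries did not deviate together (correlations 0.154, 0.064, -0.092 and -0.039). With the replicate block 3787 genes were called, 1993 higher and 1794 lower, and a sign-flip test of the replicate block in the pair shares (58.04 for Myh7, 18.49 for Acta1, 0.5077 for Tnni1, 8.399 for Cpt1a, 12.09 for Slc2a1 and 8.631 for Cox6a1) gave an exact permutation p of 0.125, the smallest it allows.

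Of the named genes called, 49 of 321 lost the call without some library, 16 of them without MI 1. The largest rises and falls were named only if their call held without MI 1, so they could not be among those 16. With MI 1 as the lone MI library the sign turned for Adgrl4 (-0.344), Anxa3 (-1.005), ATP8 (-2.067), Fmo1 (-0.259) and Timp4 (-1.373), and without MI 1 for Ighe (-0.388 to 3.618 over the libraries left out). The cause was not tested. List medians crossed 0 in some setting for antioxidant, atrial, blood endothelial, lymphocyte, neutrophil and smooth muscle genes. Most 2-fold changes were not recovered in the simulated data, which gave 97 calls against 4165 here. With so few changed genes an adjusted p is harder to pass, so that share does not carry over to these data.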

Other observations

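Iron and heme genes, growth factors and integrins also changed. Of 17 tested heme and iron genes 9 were higher and 3 lower (median 1.32). Hamp, the iron hormone hepcidin, had 0.777, 1.89, 1.48 and 1.35 CPM in Sham and 2.64, 22.9, 8.44 and 40.8 in MI, and Cp, the ferroxidase ceruloplasmin, 8.63, 8.61, 7.61 and 9.11 and 74.99, 88.7, 58.5 and 98.3. Tfrc, the receptor that takes up iron, fell from 94.4, 53.3, 76.4 and 79.6 to 16.8, 1.59, 12.4 and 7.11 CPM. The groups did not overlap in any of the 3. Of 24 hypoxia and angiogenic genes 6 were higher and 8 lower (median -0.47). Angpt1, the ligand that keeps vessels quiet, fell by 4.01 ± 1.10, and its partner Angpt2, which acts against it in most vessels, rose by 2.53 ± 0.27. MI 1 was the only MI library with a count of Angpt1, and without it the fitted difference went to -10.29 against a group at 0, which is no exact size. Vegfa did not pass (-0.66 ± 0.28, adjusted p = 0.0739). Of 28 integrin, focal adhesion and YAP target genes 10 were higher and 9 lower (median -0.18). Itga11, a collagen receptor of fibroblasts, rose by 3.67 ± 0.50 and Itga6, a laminin receptor, fell by 2.29 ± 0.64.

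Of 12 insulin-like growth factor genes 4 were higher and 3 lower, and Igf1 rose by 2.77 ± 0.32. Of 20 basement membrane and other collagens and laminins 8 were higher and 1 lower (median 0.28). Col8a2 rose by 3.67 ± 0.71 and Col4a1, the main basement membrane collagen, did not pass (0.20 ± 0.19, adjusted p = 0.433). Of 12 cartilage, bone and tendon genes 7 were higher and 1 lower (median 2.02). Chad, a cartilage matrix protein, rose by 5.20 ± 0.88 and Sox9, the cartilage factor, did not pass (-0.12 ± 0.87, adjusted p = 0.928). Of 23 genes of lipid-laden and lysosomal macrophages 14 were higher and 3 lower (median 1.08), and Apoe, a lipid carrier, rose by 3.93 ± 0.57. Of 12 neutrophil and mast cell genes 1 was higher and 2 lower, and S100a8, an abundant neutrophil protein, did not pass (-0.35 ± 1.05, adjusted p = 0.813).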
